A study of Mus musculus with 28 samples.

Results

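Olig1, Olig2, Olig3, Neurog1, Neurog2, Neurod1, Neurod4 and Atoh1 are basic helix-loop-helix (bHLH) transcription factor genes of the nervous system. They were chosen by name and are 8 of the 28244 genes counted. A bHLH factor of this kind pairs with a partner called an E protein and binds a short DNA motif, the E-box (CANNTG). Id proteins hold back the E proteins, and Hes and Hey repressors, many of them driven by Notch signalling, silence the proneural genes. Neurog1, Neurog2 and Atoh1 are proneural genes, which push a dividing progenitor towards becoming a neuron, and Neurod1 and Neurod4 act after them in the young neuron. Olig2 marks the ventral neural tube that gives motor neurons and then oligodendrocytes, Olig1 works beside it in the oligodendrocyte lineage, and Olig3 marks dorsal progenitors. Cultured neural stem cells (NSCs) held in growth factors usually keep Olig1 and Olig2 on.

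The study asked whether NSC-like cells taken from outside the brain, called peripheral NSCs (pNSCs), resemble brain NSCs or neural crest stem cells (NCSCs). Bulk RNA-seq of mouse cells gave 28 samples in 11 groups, with total counts from 9808246 to 22637031 per sample. The Nes-GFP experiment, named after a transgenic reporter driven by Nestin regulatory sequence, holds Brain-NSC, Lung-pNSC, Tail-pNSC, Lung and Tail, with 2 samples each. Its samples are labelled by tissue alone and were taken to be that experiment because groups and numbers match the study's description, which gives adult lung pNSCs and postnatal tail pNSCs. The Lung and Tail samples are tissue cells, called lung cells and tail cells here. The study's text does not state their age or whether they were cultured. The Wnt1Cre-mTmG experiment holds brain NSCs, postnatal tail pNSCs and postnatal dorsal root ganglion (DRG) pNSCs of mice in which Wnt1-Cre switches neural crest descendants from red to green, and DRG NCSCs of adult wild-type mice, with 3 samples each. Its pNSCs were picked as red, untraced clusters. The Sox2-GFP experiment holds brain NSCs and postnatal lung pNSCs of Sox2-GFP knock-in mice, with 3 samples each, and is compared with the same 2 samples of lung cells. Adult meant 4–6 weeks and postnatal meant day 1–5. Brain NSCs could come from either age, and the age behind each brain NSC group is not given in the sources used here. All samples are labelled C57BL/6, while the methods give CD1 or CD1 and C3H mixtures for wild-type mice. Brain NSC and pNSC cultures grew in medium with EGF and bFGF, and the study's text does not give the medium in which DRG NCSCs were derived. The pNSC cultures started from single picked clusters, and the Nes-GFP reporter also marks non-neural lung cells. The labels do not say that replicates came from separate animals, so p-values measure the spread between these samples alone.

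The tissue and cell labels were checked against marker genes. All 6 NSC markers listed (Sox2, Nes, Sox1, Pax6, Fabp7 and Sox9) were counted in all 8 brain NSC and pNSC groups, and their summed level lay between 3076 and 5288 cpm (counts scaled to library size with the TMM factors of edgeR). The sum was 1435 to 1822 cpm in DRG NCSCs, 362 cpm in tail cells and 293 to 317 cpm in lung cells, where Sox1 was at 0 in both tissues. Neural crest and Schwann cell markers summed to 4255 to 4361 cpm in DRG NCSCs and to between 3.83 and 72.9 cpm in the brain NSC and pNSC groups. DRG NCSCs replicate 3 stood apart from its group, with a chi-square per gene of 16.8 and 21 against the other two, where all other replicate pairs lay between 1.09 and 2.82. The Wnt1Cre-mTmG Tail pNSCs carried more mesenchymal marker counts (6 genes, 5 of them with a mean of at least 1 cpm, none at 0) than any other NSC or pNSC group, 371 to 381 cpm in sum.

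All 8 genes have a single coding exon, which 16.1% of the 21951 protein-coding genes in GENCODE vM21 share. On mouse build GRCm38, Olig2 (chr16:91225457-91228677) and Olig1 (chr16:91269772-91271933) lie 41.1 kb apart on the plus strand, with Gm37016 between them. Olig3 is at chr10:19356533-19358604, Neurog2 at chr3:127633135-127635631 and Atoh1 at chr6:64729125-64731245, all on the plus strand. Neurog1 is at chr13:56250478-56252163, Neurod1 at chr2:79452521-79456751 and Neurod4 at chr10:130268152-130280240, all on the minus strand. Of the 8, 2 share their span with other genes, Olig1 with Gm15966 on the opposite strand, and Neurod1 with Cerkl on the same strand and Gm26755 on the opposite strand. Whether counting used strand is not given, so counts of Olig1 and Neurod1 could include reads of these neighbours.

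Promoter windows of 300 bases (250 before and 50 after the start) were found for 7 of the 8 genes in RefSeq sequence of GRCm38.p6. Those of the 4 genes on which the results turn are shown 5′ to 3′, Olig2 for its high level and Neurog2, Neurod1 and Neurod4 for their differences between pNSC groups. They cover chr16:91225300-91225599 (plus), chr3:127632886-127633185 (plus), chr2:79456587-79456886 (minus) and, for 1 of 2 starts of Neurod4, chr10:130280089-130280388 (minus). Capitals mark an E-box (CANNTG, the same pattern on both strands) or the letters TATAAA, searched on both strands.
Olig2: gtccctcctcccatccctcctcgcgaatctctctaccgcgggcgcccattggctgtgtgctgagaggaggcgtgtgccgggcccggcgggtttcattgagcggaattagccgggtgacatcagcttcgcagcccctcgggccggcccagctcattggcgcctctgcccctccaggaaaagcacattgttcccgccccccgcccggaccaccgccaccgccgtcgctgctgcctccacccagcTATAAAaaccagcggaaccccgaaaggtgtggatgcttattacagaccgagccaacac
Neurog2: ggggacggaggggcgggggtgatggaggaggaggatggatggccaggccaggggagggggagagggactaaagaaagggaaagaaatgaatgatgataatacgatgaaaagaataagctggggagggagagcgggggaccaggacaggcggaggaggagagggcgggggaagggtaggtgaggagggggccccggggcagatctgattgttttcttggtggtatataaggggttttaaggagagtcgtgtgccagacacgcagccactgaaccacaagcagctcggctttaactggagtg
Neurod1: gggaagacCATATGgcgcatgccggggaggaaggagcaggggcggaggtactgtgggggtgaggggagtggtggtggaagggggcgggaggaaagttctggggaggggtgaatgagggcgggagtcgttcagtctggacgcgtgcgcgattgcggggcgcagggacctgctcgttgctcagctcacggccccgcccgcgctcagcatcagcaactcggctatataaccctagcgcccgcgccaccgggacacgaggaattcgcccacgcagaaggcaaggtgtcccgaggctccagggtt
Neurod4: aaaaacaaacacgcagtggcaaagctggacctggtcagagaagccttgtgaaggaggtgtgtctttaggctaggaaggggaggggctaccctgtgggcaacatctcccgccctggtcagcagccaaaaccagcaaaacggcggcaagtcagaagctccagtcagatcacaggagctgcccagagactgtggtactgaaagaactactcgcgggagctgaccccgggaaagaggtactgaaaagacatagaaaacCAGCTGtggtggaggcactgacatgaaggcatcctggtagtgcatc
The Neurod1 window holds CATATG at -242 from the start and the Neurod4 window CAGCTG at +4, both among the letters that CANNTG covers. The Olig2 and Neurog2 windows hold no CANNTG, and the letters TATAAA are in the Olig2 window. Of 32851 promoters of this length, 72.3% held CANNTG, 16.3% CAGCTG, 3.91% CATATG and 13.6% TATAAA. Among the other members, Olig3 had CAACTG as well as the letters TATAAA, Neurog1 had CACTTG and Atoh1 had neither motif.

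The study's RT-qPCR primers for Olig2 are shown because they place the assayed stretch on the gene. Both lie in exon 2, in coding sequence, at chr16:91226856-91226875 and, as the reverse complement, at chr16:91226904-91226922.
Olig2 forward: ctgctggcgcgaaactacat
Olig2 reverse: cgctcaccagtcgcttcat

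Olig1 and Olig2 were the only members counted at a high level. Compared per kilobase of exon, Olig1 had group means of 738 to 1527 cpm per kb and Olig2 of 349 to 546 cpm per kb in the 8 brain NSC and pNSC groups. The highest group means of the others were 1.84 cpm per kb for Neurog2, 2.31 for Neurod1 and 1.16 for Neurod4. In bulk RNA, fewer cells with a transcript and less of it per cell cannot be told apart.

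Olig1 differed between cultures over a narrow range. In Brain-NSC it measured 2129.8 and 2196 cpm, and in Lung-pNSC 2436 and 2381 cpm. In Tail-pNSC it measured 1638 and 1725 cpm, below every other sample of that experiment's cultures. The Wnt1Cre-mTmG samples measured 2805, 2816 and 2807 cpm in brain NSCs, 2656, 2659 and 2687 cpm in DRG pNSCs and 1593, 1574 and 1620.2 cpm in tail pNSCs. Tail pNSCs again lay below the others, and the 3 groups did not overlap. In the Sox2-GFP experiment, Olig1 measured 2352, 2279 and 2306 cpm in brain NSCs and 3266, 3333 and 3306 cpm in lung pNSCs, the highest samples of the series. Ordered by mean, the groups ran from Sox2-GFP lung pNSCs (3302 ± 33.5 cpm, SD, n = 3) through Wnt1Cre-mTmG brain NSCs, DRG pNSCs, Lung-pNSC, Sox2-GFP brain NSCs and Brain-NSC to Tail-pNSC (1681 ± 61.1, n = 2) and Wnt1Cre-mTmG Tail pNSCs (1596 ± 23.2, n = 3). No neighbours in this order overlapped.

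Olig2 was steadier still. It measured 1098 and 1113 cpm in Brain-NSC, 1259.6 and 1208 cpm in Lung-pNSC and 1158 and 1192 cpm in Tail-pNSC. These 3 groups were close, with Brain-NSC the lowest. The Wnt1Cre-mTmG experiment gave 1092, 1128 and 1122 cpm in brain NSCs, 1241, 1264 and 1264 cpm in DRG pNSCs and 875, 885 and 892 cpm in tail pNSCs. Sox2-GFP brain NSCs measured 924, 904 and 901 cpm and Sox2-GFP lung pNSCs 1385, 1382 and 1378 cpm. Sox2-GFP lung pNSCs (1382 ± 3.69 cpm, SD, n = 3) were highest and Wnt1Cre-mTmG Tail pNSCs (884 ± 8.87, n = 3) lowest of the 8 groups. DRG pNSCs overlapped Lung-pNSC, and Wnt1Cre-mTmG brain NSCs overlapped Brain-NSC, so these neighbours did not differ beyond their spread.

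**Figure D1:**
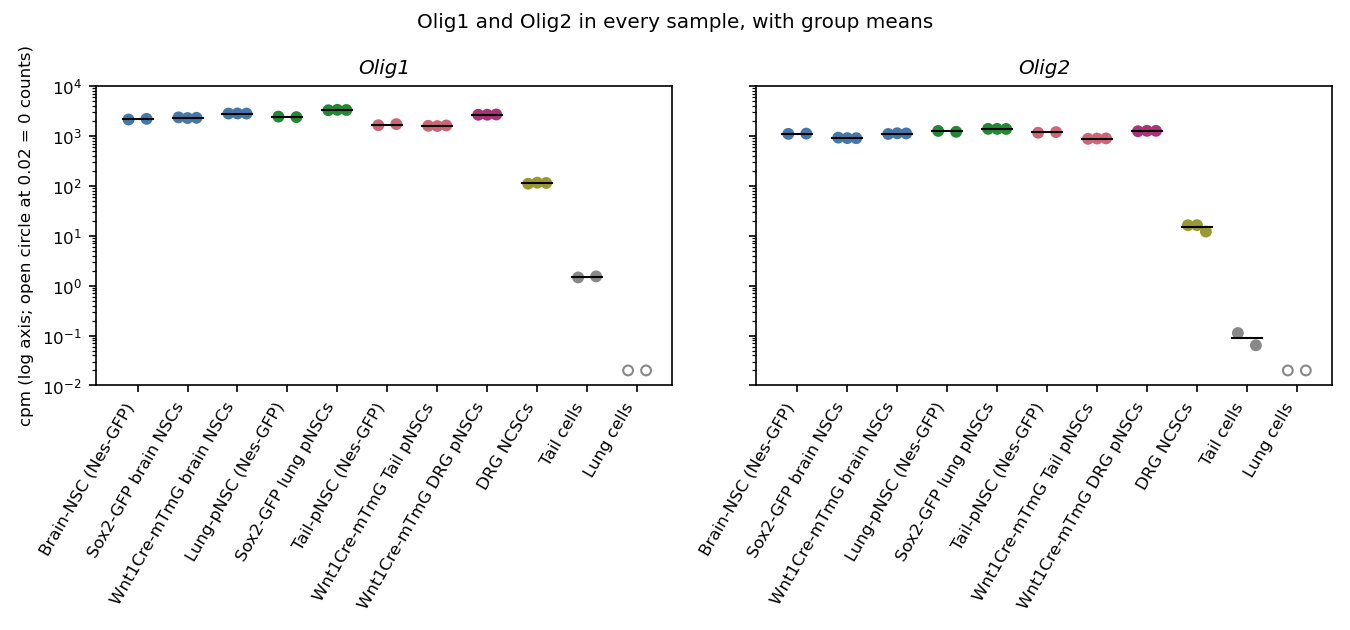
TMM cpm of Olig1 (left) and Olig2 (right) on a log axis, 1 point per sample and a line at each group mean, with open circles for samples at 0 counts. The brain NSC and pNSC groups form a plateau from 1574 to 3333 cpm for Olig1 and from 875 to 1385 cpm for Olig2, DRG NCSCs lie well below it, and tail and lung cells are at or near 0.

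DRG NCSCs held both Olig genes at a low level. Olig1 measured 110.3, 115.7 and 114.3 cpm (2381, 2447 and 1960 counts) and Olig2 16.3, 16.3 and 12.1 cpm (351, 345 and 208 counts). The library that stood apart from its group was the lowest of the 3 for Olig2 and lay between the others for Olig1. Against Wnt1Cre-mTmG brain NSCs, the log2 difference was -4.62 for Olig1 (edgeR quasi-likelihood test, SE 0.0376, adjusted p = 8.51e-23) and -6.20 for Olig2 (SE 0.0687, adjusted p = 2.93e-21). In this edgeR fit a gene was called when its Benjamini-Hochberg adjusted p over all genes was under 0.05 and its absolute log2 fold change at least 1. Leaving out each library in turn kept these differences between -4.63 and -4.59 for Olig1 and between -6.26 and -6.08 for Olig2. Markers of other cells moved with the fall. Those of neural crest and Schwann cells summed to 4255 to 4361 cpm in these samples against 22.5 to 23.6 cpm in the brain NSCs, those of mesenchymal cells to 2784 to 3417 cpm against 16.6 to 20.02 cpm, and those of neurons to 644 to 673 cpm against 60.4 to 63.9 cpm, and their part in the result was not tested.

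Tail and lung cells were almost without either gene. Tail cells had 26 and 24 counts of Olig1 (1.46 and 1.53 cpm) and 2 and 1 counts of Olig2, and lung cells had 0 counts of both in both samples. Against lung cells, Olig1 was at least 13756-fold higher in Lung-pNSC and at least 18858-fold higher in Sox2-GFP lung pNSCs, and Olig2 at least 7048-fold and 7893-fold higher, taking 3 counts per library as the floor. Olig1 was 10.05 higher on the log2 scale in Tail-pNSC than in tail cells (SE 0.0593), and Olig2 was 13121-fold higher, with a 95% counting interval of 4489 to 63628. Both lung comparisons use the same lung cells, and counting intervals and floors cover counting error only.

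Olig3 and Neurog1 were near the floor of the measurement. Olig3 was at 0 in all but 4 samples: lung cells had 6 and 10 counts (0.326 and 0.624 cpm), and 1 library each of Wnt1Cre-mTmG Tail pNSCs and DRG NCSCs had a single count. It was thus at least 3.07-fold lower in Lung-pNSC than in lung cells. Neurog1 never passed 2 counts in any library, so no difference was detectable at this depth. A count of 3 corresponds to 0.130 to 0.296 cpm, depending on the library.

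Atoh1, known from cerebellar granule cell progenitors, inner ear hair cells and Merkel cells of the skin, was counted in tail cells, with 24 and 28 counts (1.35 and 1.79 cpm). It was at 0 in both Tail-pNSC samples, at least 9.69-fold lower. A single count appeared in 1 library each of Sox2-GFP brain NSCs, Sox2-GFP lung pNSCs and Wnt1Cre-mTmG Tail pNSCs, and all other samples were at 0.

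Neurog2, the proneural gene of cortical and spinal progenitors, separated the Wnt1Cre-mTmG Tail pNSCs from the rest. These samples had 98, 83 and 83 counts (4.28, 3.82 and 4.18 cpm), above every other sample of the series. Brain NSCs of the same experiment had 2, 3 and 1 counts and DRG pNSCs 3, 1 and 1, and DRG NCSCs were at 0. In the Nes-GFP experiment Neurog2 measured 0.659 and 1.22 cpm (13 and 25 counts) in Brain-NSC, 0.617 and 0.502 cpm in Lung-pNSC and 1.48 and 1.27 cpm in Tail-pNSC. Tail-pNSC lay above both other groups, though close to the higher Brain-NSC sample. The Sox2-GFP experiment gave 1.21, 1.34 and 1.66 cpm in brain NSCs and 2.202, 1.49 and 2.00 cpm in lung pNSCs, which overlapped. Tail cells had 3 and 1 counts and lung cells 0.

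Neurod1, which drives the maturation of newborn neurons, was highest in Tail-pNSC, at 6.86 and 5.73 cpm (120 and 113 counts). Brain-NSC measured 2.99 and 2.24 cpm and Lung-pNSC 2.80 and 1.67 cpm, overlapping each other and lying below Tail-pNSC. Wnt1Cre-mTmG Tail pNSCs measured 2.71, 2.81 and 2.11 cpm, DRG pNSCs 1.27, 1.58 and 1.06 cpm and the brain NSCs 0.715, 0.580 and 0.760 cpm, with no overlap between the 3 groups. Sox2-GFP lung pNSCs measured 3.54, 4.28 and 3.86 cpm (74, 92 and 87 counts) against 0.115, 0.303 and 0.344 cpm (2, 7 and 6 counts) in their brain NSCs. DRG NCSCs had 2, 9 and 1 counts, and tail and lung cells were at 0 in all 4 samples. Brain NSC cultures themselves spanned a mean of 0.25 cpm in the Sox2-GFP experiment to 2.62 cpm in the Nes-GFP experiment.

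Neurod4, a relative that acts in retinal, spinal and other neuron precursors, exceeded 6 counts per library in a single group. Wnt1Cre-mTmG Tail pNSCs had 87, 83 and 80 counts (3.80, 3.82 and 4.03 cpm). Tail-pNSC had 1 and 6 counts, Brain-NSC 1 and 3, Wnt1Cre-mTmG brain NSCs 1, 1 and 2 and DRG pNSCs 1, 2 and 0, and no other sample exceeded 2 counts. The tail pNSCs of both experiments thus did not overlap for Neurod4 or Neurog2, and for Neurod1 their order was the opposite.

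**Figure D2:**
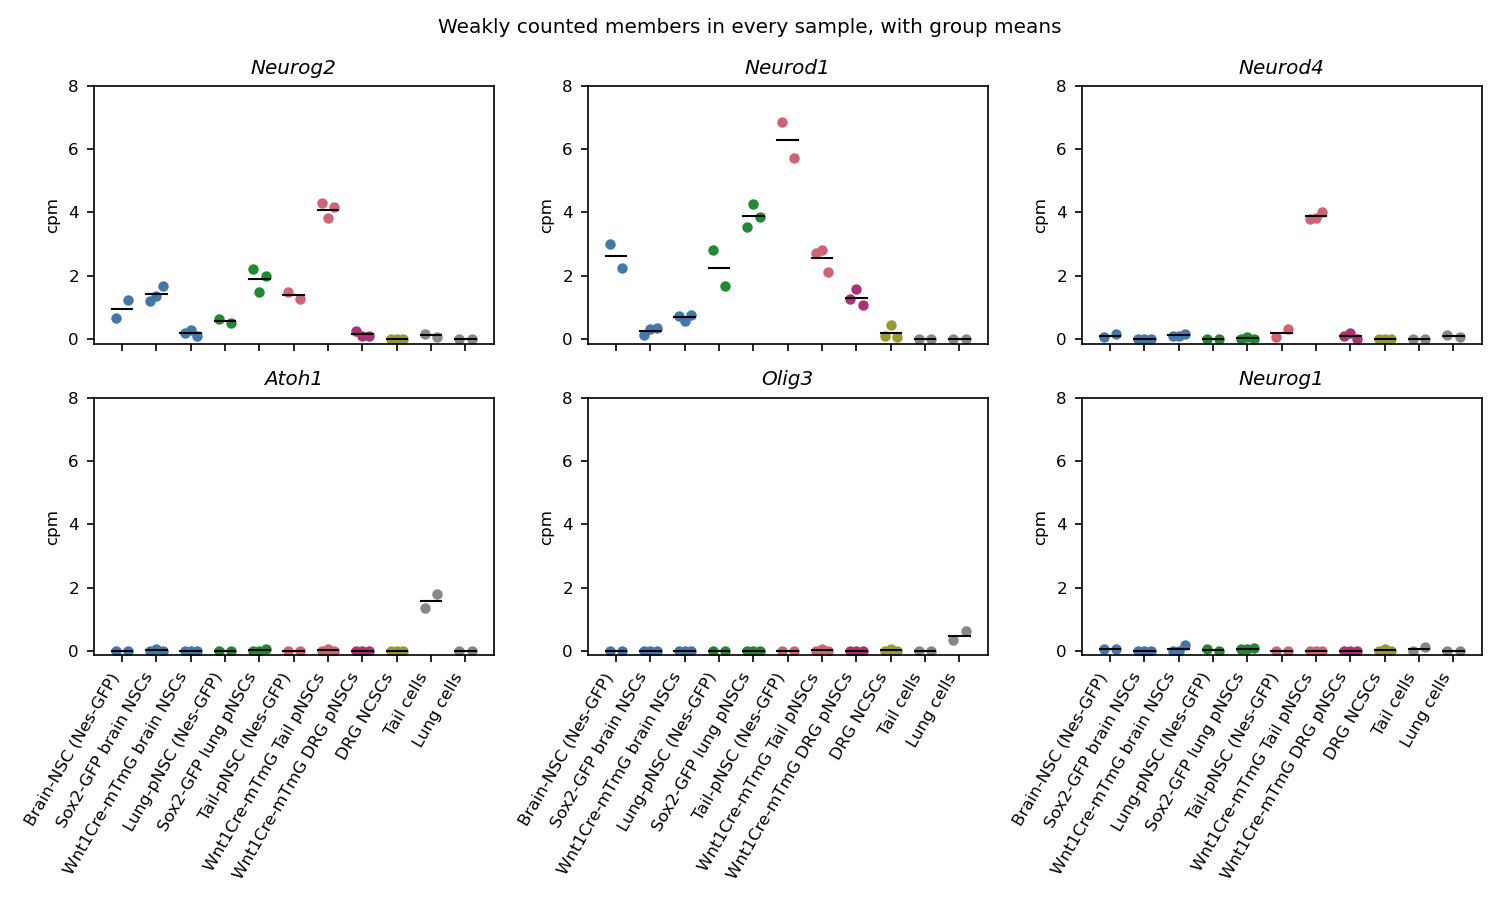
TMM cpm (linear axis, same scale in all panels) of the 6 weakly counted members, 1 point per sample and a line at each group mean. Neurog2 and Neurod4 stand out in Wnt1Cre-mTmG Tail pNSCs (means 4.09 and 3.88 cpm), Neurod1 in Tail-pNSC (6.29 cpm) and Sox2-GFP lung pNSCs (3.89 cpm), Atoh1 in tail cells and Olig3 in lung cells.

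Tail pNSCs were first set against brain NSCs of the Nes-GFP experiment, the comparison of a peripheral with a central stem cell culture. A gene was tested when it passed the filter on low counts in any group of its experiment. Of 5 members tested, 1 was called, where 10.9% of all 16948 genes were called. The 5 include Atoh1, which passed through tail cells alone and was at 0 in all cultures of this experiment, so that 4 could be called in comparisons between its cultures. Neurod1 was 1.26 higher on the log2 scale (edgeR, SE 0.222, adjusted p = 6.12e-08). Olig1 was lower (-0.36, SE 0.0275, adjusted p = 2.23e-38) and Olig2 0.089 higher (SE 0.0297, adjusted p = 0.00709), both in edgeR and both short of the limit on the fold. Neurog2 gave a log2 difference of 0.54 (edgeR, SE 0.408, adjusted p = 0.292), and Neurod4, which did not pass the filter, a ratio of 1.89 with a 95% counting interval of 0.481 to 8.81.

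In the Wnt1Cre-mTmG experiment, 3 of the 5 members tested were called in tail pNSCs against brain NSCs, beside 18.2% of 14448 genes. All 3 rose. Neurog2 and Neurod4 passed the filter through these tail pNSCs alone, and Neurod1 through the pNSC groups alone. The count of members is therefore no support for the rise. Neurog2 was 22.8-fold higher (95% counting interval 10.3 to 62.6) and Neurod4 32.3-fold (12.5 to 120), which edgeR put at log2 differences of 4.45 (SE 0.330, adjusted p = 9.84e-09) and 4.93 (SE 0.369, adjusted p = 1.13e-08). Neurod1 was 1.88 higher on the log2 scale (edgeR, SE 0.323, adjusted p = 6.6e-05). Olig1 (-0.81, SE 0.0320, adjusted p = 4.06e-13 in edgeR) and Olig2 (-0.33, SE 0.0505, adjusted p = 1.93e-05 in edgeR) were lower and not past the fold limit. Beside these values, the mesenchymal markers summed to 371 to 381 cpm in these tail pNSCs against 16.6 to 20.02 cpm in the brain NSCs. Neuron markers (8 genes, none at 0) summed to 119.7 to 121.9 cpm against 60.4 to 63.9 cpm, with 5 higher and 1 lower. Markers of lung neuroendocrine cells summed to 279 to 281 cpm against 156 to 158 cpm, with 2 of 6 higher and 1 lower. The part of these markers in the result was not tested.

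DRG pNSCs of the same experiment, which share those brain NSCs, had 0 of 5 members called by edgeR or by DESeq2, beside 9.53% of all genes in edgeR. Neurog2 and Neurod4 were at or under 3 counts per library in both groups, so 3 members were measurable here. Olig2 was 0.17 higher (edgeR, SE 0.0506, adjusted p = 0.00999), and 3 of the 5 had an unadjusted p under 0.05. The share of all genes under that limit was not taken, so this count is no result about the members. Olig1 gave -0.076 (edgeR, SE 0.0318, adjusted p = 0.0618) and Neurod1 0.91 (SE 0.409, adjusted p = 0.0819). Directly against DRG pNSCs, tail pNSCs had 2 of 5 members called, beside 18.0% of all genes. Both passed the filter through these tail pNSCs alone, so the count of members is no support for the rise. Neurog2 was 26.5-fold higher (95% counting interval 11.2 to 82.2) and Neurod4 41.8-fold (14.1 to 204), with edgeR adjusted p-values of 9.24e-09 and 1.04e-08. Olig1 (-0.74, SE 0.0320), Olig2 (-0.50, SE 0.0506) and Neurod1 (0.98, SE 0.281) passed edgeR's adjusted p (1.51e-12, 1.24e-07 and 0.00564) within 2-fold. DRG pNSCs had mesenchymal markers at 15.2 to 16.9 cpm and neuron markers at 80.2 to 85.5 cpm.

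Lung pNSCs of the Nes-GFP experiment, which share Brain-NSC with the tail comparison, had 0 of 5 members called by edgeR or DESeq2, beside 8.71% of 16948 genes in edgeR, and Atoh1 was at 0 in both groups. At an unadjusted p under 0.05 there were 2, a limit at which the share of all genes was not taken. Olig1 (0.15, SE 0.0274, adjusted p = 6.64e-07) and Olig2 (0.15, SE 0.0297, adjusted p = 2.66e-06) were slightly higher in edgeR. Neurog2 gave -0.75 (SE 0.484, adjusted p = 0.23) and Neurod1 -0.21 (SE 0.264, adjusted p = 0.597) in edgeR. The sign of the Neurod1 value depended on 1 library, as it was 0.012 without Brain-NSC replicate 1 and 0.088 without Lung-pNSC replicate 2.

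Tail-pNSC against Lung-pNSC had 2 of 5 members called, beside 12.9% of all genes. Neurod1 was 1.47 higher in Tail-pNSC (edgeR, SE 0.229, adjusted p = 6.21e-10) and Neurog2 1.28 higher (edgeR, SE 0.456, adjusted p = 0.0106). The Neurog2 call was lost without Tail-pNSC replicate 1 (1.17, edgeR adjusted p = 0.0815), without Lung-pNSC replicate 2 (1.16, adjusted p = 0.0886) and in DESeq2 (1.28, adjusted p = 0.135). Olig1 was lower in Tail-pNSC (-0.51, edgeR, SE 0.0276, adjusted p = 1.47e-74), and the Olig2 difference was -0.061 (adjusted p = 0.0716 in edgeR).

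Sox2-GFP lung pNSCs against Sox2-GFP brain NSCs had 1 of 4 members called, beside 15.7% of 16234 genes. The member called, Neurod1, passed the filter through these lung pNSCs alone, so the count of members is no support for its rise. Neurod1 was 3.88 higher on the log2 scale (edgeR, SE 0.291, adjusted p = 1.4e-39). Olig1 was 0.51 higher (SE 0.0151, adjusted p = 5.21e-251) and Olig2 0.60 higher (SE 0.0169, adjusted p = 2.73e-276) in edgeR, which made this the comparison with the largest rise of both Olig genes among the 5 of pNSCs with brain NSCs. Neurog2 gave 0.43 (edgeR, SE 0.236, adjusted p = 0.0947). The brain NSCs of this experiment carried neural crest and Schwann cell markers at 68.1 to 72.9 cpm and neuron markers at 113 to 119 cpm, against 10.6 to 11.2 and 41.6 to 44.7 cpm in the lung pNSCs. Mesenchymal markers summed to 14.3 to 17.8 cpm in the lung pNSCs against 4.55 to 6.31 cpm in the brain NSCs, and lung neuroendocrine markers to 208.7 to 209.3 against 148 to 151 cpm, with 1 of 5 tested higher and 3 lower. The part of these markers was not tested.

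**Figure D3:**
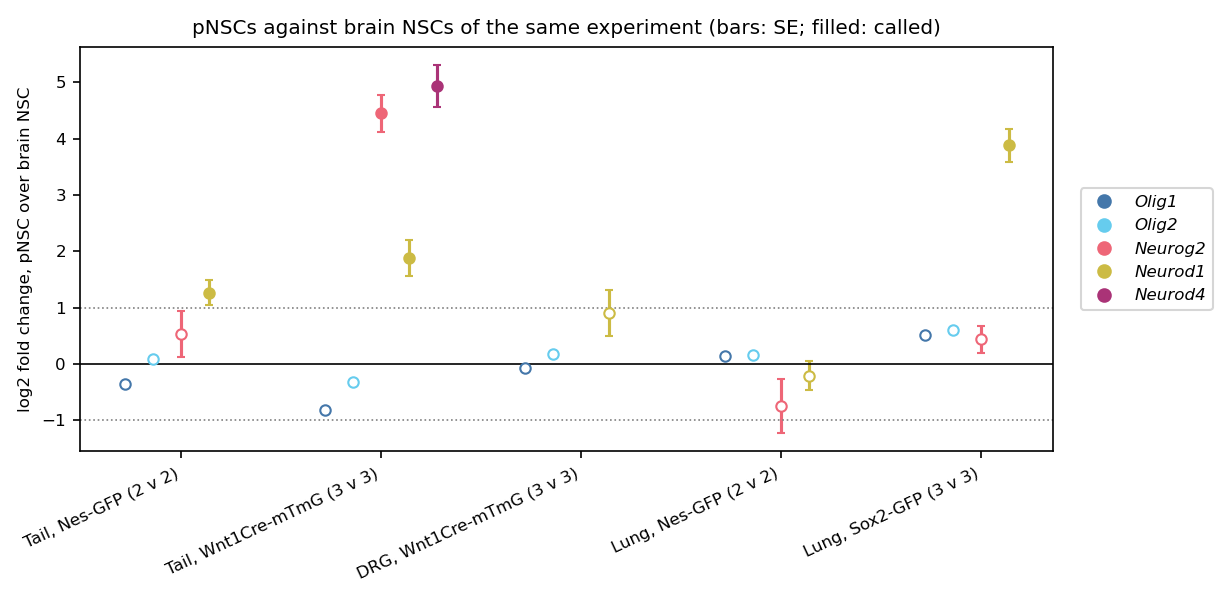
Log2 fold change of 5 members in pNSCs over brain NSCs of the same experiment, with SE bars from edgeR, dotted lines at the limit of 1 in either direction, filled points for called genes, and genes not tested or at the floor left out. Olig1 and Olig2 stay within the dotted lines in all 5 comparisons, while Neurog2 (4.45) and Neurod4 (4.93) pass them in Wnt1Cre-mTmG tail pNSCs and Neurod1 in the tail comparisons (1.26 and 1.88) and in Sox2-GFP lung pNSCs (3.88).

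In DRG NCSCs, Olig1, Olig2 and Neurod1 were lower than in brain NSCs, beside 36.9% of all genes called. Neurog2 and Neurod4, which passed the filter through the tail pNSCs alone, were also called, but at 0 counts against 6 and 4 they give no fold. Fitted without the other groups, Olig1 and Olig2 were the members tested, and both were called. Neurod1 was lower (-1.73, edgeR, SE 0.536, adjusted p = 0.0068). Tail pNSCs had Olig1, Olig2, Neurod1, Neurog2 and Neurod4 higher than DRG NCSCs, beside 37.9% of genes called. Neurog2 was at least 26.9-fold higher, Neurod4 at least 25.6-fold higher, Olig1 3.81 and Olig2 5.87 higher on the log2 scale (edgeR adjusted p = 5.35e-22 and 4.06e-21), and Neurod1 3.62 higher (edgeR, SE 0.355, adjusted p = 3.95e-08). DRG pNSCs had Olig1, Olig2 and Neurod1 higher than DRG NCSCs, beside 38.3% of genes called, and the same 3 were tested and called without the other groups. Neurod1, at 12 counts in DRG NCSCs, passed the filter through pNSCs alone, for DRG and tail pNSCs alike. That it was tested and called is therefore no support for its rise. Neurog2 and Neurod4, at 5 and 3 counts against 0, were under the floor in both groups and give no fold, and 1 of these was not called without DRG pNSC replicate 2. Olig1 was 4.54, Olig2 6.37 and Neurod1 2.64 higher there (edgeR adjusted p = 1.57e-22, 2.68e-21 and 4.82e-05). Without DRG NCSCs replicate 2, which held 9 of the 12 Neurod1 counts of that group, the Neurod1 values were -3.01, 4.89 and 3.92 for NCSCs against brain NSCs, tail pNSCs against NCSCs and DRG pNSCs against NCSCs.

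Tail-pNSC had 4 members higher and 1, Atoh1, lower than tail cells among 5 tested, beside 46.7% of all genes called. Members at or near 0 in tissue cells passed the filter through the cultures, and Atoh1 through tail cells, so these counts are no support for the differences. Neurod1 was at least 35.0-fold higher and Neurog2 11.5-fold higher (95% counting interval 4.21 to 43.7). Lung-pNSC had 4 of 5 members called against lung cells, beside 55.0% of genes, and Sox2-GFP lung pNSCs 4 of 4, beside 56.3%. Neurod1 was at least 12.8-fold and 22.2-fold higher and Neurog2 at least 3.20-fold and 10.8-fold higher in these lung comparisons.

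Whether tail pNSCs differed from brain NSCs alike in both experiments was asked with an interaction term, fitted by edgeR to the 28 samples together. It called 2 of 6 members, beside 16.0% of 17393 genes. Of these, Neurod4 passed the filter through the Wnt1Cre-mTmG tail pNSCs alone, so the count of members is no support for its difference. The tail difference of Neurog2 was 3.92 larger in the Wnt1Cre-mTmG experiment (edgeR, SE 0.569, adjusted p = 4.36e-07) and that of Neurod4 4.07 larger (SE 1.30, adjusted p = 0.00965 in edgeR), the latter lost without Brain-NSC replicate 2 (3.18, adjusted p = 0.283 in edgeR). Olig1 (-0.45, SE 0.0432) and Olig2 (-0.42, SE 0.0565) differed within 2-fold, with edgeR adjusted p-values of 3.23e-11 and 6.64e-08. For Neurod1 the interaction was 0.62 (edgeR, SE 0.423, adjusted p = 0.247). Mean Neurog2 was 4.09 cpm in Wnt1Cre-mTmG Tail pNSCs and 1.38 cpm in Tail-pNSC, beside 0.184 and 0.939 cpm in their brain NSCs. Both the tail pNSCs and the brain NSC references thus enter the Neurog2 interaction. The same test for lung pNSCs, Sox2-GFP against Nes-GFP, called 2 of 6 members, beside 14.1% of genes. The Neurod1 difference was 4.08 larger in the Sox2-GFP experiment (edgeR, SE 0.438, adjusted p = 7.57e-10) and the Neurog2 difference 1.17 larger (SE 0.456, adjusted p = 0.0341 in edgeR). Mean Neurod1 was 0.254 cpm in Sox2-GFP brain NSCs and 2.62 cpm in Brain-NSC, and 3.89 and 2.24 cpm in the lung pNSCs of those experiments. For Neurod1 the brain NSC references thus differed more between the experiments than the lung pNSCs did. The Neurog2 call was lost without any 1 of Brain-NSC replicate 2, Lung-pNSC replicates 1 and 2, Sox2-GFP brain NSC replicates 1 and 2 and Sox2-GFP lung pNSC replicates 1 and 3, with values from 0.65 to 1.30. Reporter, mouse line and picked clusters differ between the experiments, and for the lung pNSCs the age as well. Nes-GFP tail cells were sorted by their reporter, while Wnt1Cre-mTmG tail cells were plated unsorted or sorted as untraced cells. These differences cannot be told apart here.

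The ratio of Olig1 to Olig2, taken per kilobase in each sample, does not depend on how libraries are scaled. It was 2.27 and 2.31 in Brain-NSC, 2.26 and 2.31 in Lung-pNSC and 1.66 and 1.69 in Tail-pNSC. It was 3.01, 2.92 and 2.93 in Wnt1Cre-mTmG brain NSCs, 2.50, 2.46 and 2.49 in DRG pNSCs and 2.13, 2.08 and 2.12 in tail pNSCs. Tail pNSCs thus had the lowest ratio within each of their experiments. Sox2-GFP brain NSCs gave 2.98, 2.95 and 2.99 and Sox2-GFP lung pNSCs 2.76, 2.82 and 2.81. DRG NCSCs gave 7.94, 8.30 and 11.03, where the highest is the library that stood apart. On the log2 scale the tail ratio differed from brain by -0.45 in the Nes-GFP experiment and by -0.48 in the Wnt1Cre-mTmG experiment. An exact two-sided permutation test gave p = 0.333 for 2 against 2 samples and 0.1 for 3 against 3, the smallest p these designs allow, and adjusted over 8 comparisons these were 0.381 and 0.16. In 7 of the 8 comparisons the groups did not overlap, and Lung-pNSC against Brain-NSC, which did overlap, differed by -0.0036 (exact p = 0.667).

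**Figure D4:**
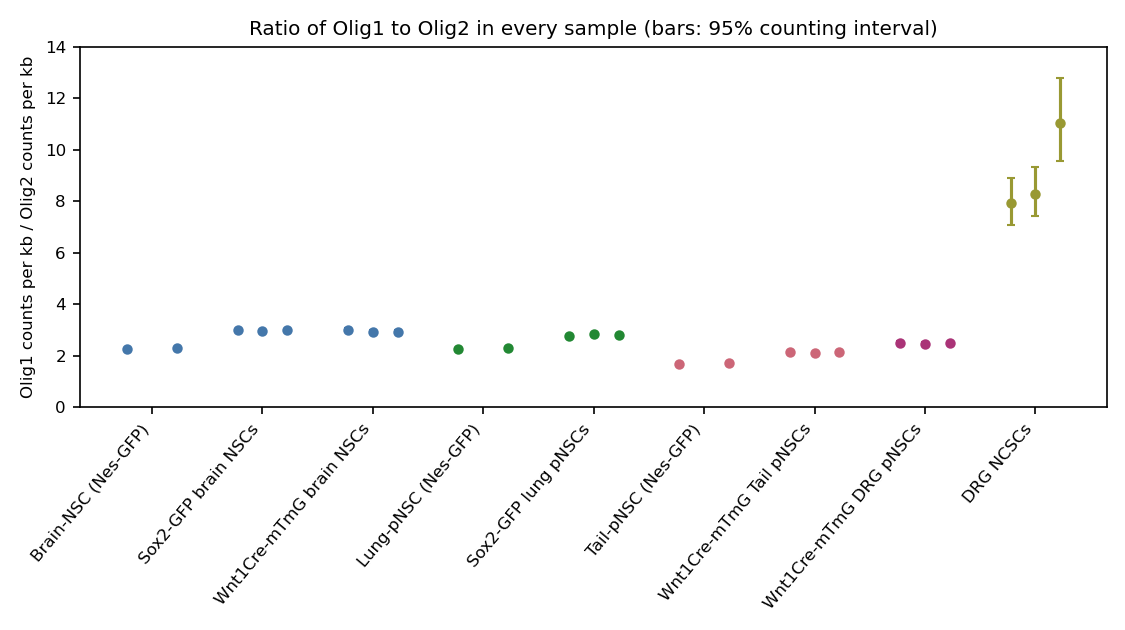
Ratio of Olig1 to Olig2 counts per kilobase (linear axis) in every sample of the brain NSC, pNSC and NCSC groups, with 95% counting intervals as bars. Tail pNSCs sit lowest (1.66 to 2.13), the other brain NSC and pNSC samples between 2.26 and 3.01, and DRG NCSCs at 7.94 to 11.03.

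The partners and inhibitors of these factors were described from lists set by name. The 3 E protein genes (Tcf3, Tcf4 and Tcf12), whose products pair with the members, had 0 called in all 5 comparisons of pNSCs with brain NSCs. The share of all genes called there was 8.71% to 18.2%. Tcf4 measured 550.3 to 919 cpm as a mean in these groups and 168.9 ± 16.3 cpm (SD, n = 3) in DRG NCSCs, where it fell by 1.69 on the log2 scale against brain NSCs (edgeR adjusted p = 1.39e-15). Of the 4 Id genes, Id4 was lower in Tail-pNSC (-1.86), Lung-pNSC (-1.68), DRG pNSCs (-1.56) and Sox2-GFP lung pNSCs (-2.15) than in the brain NSCs of each experiment, and higher in Wnt1Cre-mTmG Tail pNSCs (1.26), with edgeR adjusted p-values of 3.78e-09 for the last and at most 1.58e-07 for the others. Its level there was 22.6 ± 0.417 cpm (SD, n = 3), against 9.45 ± 1.38 cpm in the brain NSCs. Id4 shares its span with 2 genes on the opposite strand. Id2 was the other Id gene called in these comparisons, 1.64 higher in Lung-pNSC than in Brain-NSC.

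The list of Hes and Hey family genes holds 8 genes, Hes6 among them, of which 7 or 8 were tested. In Wnt1Cre-mTmG Tail pNSCs 5 were higher and 0 lower than in brain NSCs. The median log2 difference of the list was 1.21 beside 0.00386 over all genes. Hey2 (2.26), Hes1 (1.21) and Hes5 (1.05, overlapped by a gene on the opposite strand) were among the 5. In Tail-pNSC, 1 of 7 was lower and 0 were higher, with a median of 0. DRG pNSCs and Lung-pNSC had 0 called of 7. In Sox2-GFP lung pNSCs 4 of 8 were lower and 0 higher, with a median of -0.87 beside 0 over all genes, and Hes5 was lower there (-1.28). Of all genes, 18.2% were called, either way, in Wnt1Cre-mTmG Tail pNSCs, 10.9% in Tail-pNSC and 9.53% in DRG pNSCs. The share was 8.71% in Lung-pNSC and 15.7% in Sox2-GFP lung pNSCs.

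Of 13 other neural bHLH genes, 4 to 6 were tested per experiment. Higher and lower genes of this list numbered 1 and 3 of 6 in Tail-pNSC, 0 and 1 of 6 in Lung-pNSC, 2 and 0 of 5 in Wnt1Cre-mTmG Tail pNSCs, 1 and 0 of 5 in DRG pNSCs and 1 and 0 of 4 in Sox2-GFP lung pNSCs, each against brain NSCs. Of all genes, 10.9%, 8.71%, 18.2%, 9.53% and 15.7% were called, either way, in the same order. With so few genes tested, these counts do not set the list apart from that share.

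Genes known to act downstream of proneural factors or to mark young neurons (15 genes, 13 or 14 tested) went different ways in the tail comparisons. In Tail-pNSC 3 were lower and 0 higher than in Brain-NSC, with a median of -0.59 beside 0 over all genes. Dcx, a microtubule protein of migrating neurons, was lower (-4.12, edgeR, SE 0.296, adjusted p = 7.26e-43), as was the RNA-binding protein gene Elavl3 (-3.14). In Wnt1Cre-mTmG Tail pNSCs 7 were higher and 0 lower than in their brain NSCs, with a median of 1.01 beside 0.00386 over all genes. Rbfox3 (2.83), Elavl4 (2.04) and Dcx (1.23) were among them. The interaction called 8 of 14 with a larger tail difference in the Wnt1Cre-mTmG experiment and 0 the other way, and Dcx stood at 5.35 (edgeR, SE 0.257, adjusted p = 8.64e-20). Against DRG pNSCs, 7 of 13 were higher in tail pNSCs and 0 lower. In Sox2-GFP lung pNSCs 1 was higher and 5 of 14 were lower, and Dcx was lower there (-5.67, SE 0.117), while Neurod1 was higher. Shares of all genes called, either way, were 10.9% (Tail-pNSC), 18.2% (Wnt1Cre-mTmG Tail pNSCs), 16.0% (interaction), 18.0% (tail against DRG pNSCs) and 15.7% (Sox2-GFP lung pNSCs). The neuron marker list holds 6 of these 15 genes. The mesenchymal, neuron and neuroendocrine marker sums given above moved with the Wnt1Cre-mTmG tail values, and their part was not tested.

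**Figure D5:**
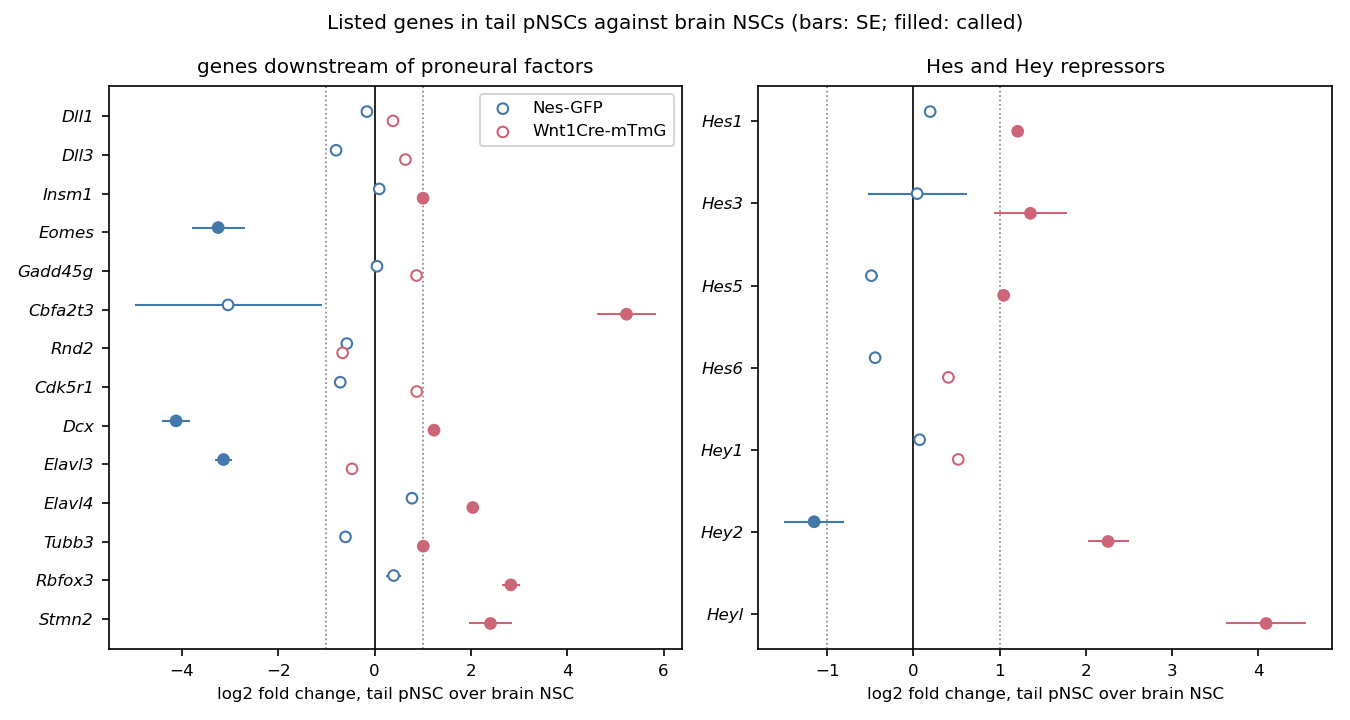
Log2 fold change of the listed genes tested in tail pNSCs over brain NSCs of the same experiment. Genes downstream of proneural factors are on the left and Hes and Hey family genes on the right. SE bars are from edgeR, dotted lines lie at 1 in either direction and filled points are called genes. Red points (Wnt1Cre-mTmG) lie mostly to the right of blue points (Nes-GFP), as for Dcx at 1.23 against -4.12.

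Among 10 oligodendrocyte lineage genes, Gpr17, a receptor of maturing oligodendrocyte precursors, was lower in pNSCs than in brain NSCs in all 5 comparisons, with log2 differences of -4.87 (Tail-pNSC), -2.96 (Lung-pNSC), -1.93 (Wnt1Cre-mTmG Tail pNSCs), -1.28 (DRG pNSCs) and -7.74 (Sox2-GFP lung pNSCs). The edgeR adjusted p was at most 4e-09. In the Sox2-GFP experiment its level was 393.5 ± 1.79 cpm (SD, n = 3) in brain NSCs and 1.83 ± 0.188 cpm in lung pNSCs, while Olig1 and Olig2 were higher in the latter. Gpr17 lies within Lims2, on the opposite strand. Of the whole list, 7 of 10 were lower and 0 higher in Sox2-GFP lung pNSCs (median -2.09), 3 lower and 1 higher of 9 in Tail-pNSC (median -0.38), 1 lower and 1 higher of 9 in Lung-pNSC (median -0.28), 2 lower and 0 higher of 10 in Wnt1Cre-mTmG Tail pNSCs (median -0.32) and 3 lower and 2 higher of 10 in DRG pNSCs (median -0.28). Of all genes, 15.7%, 10.9%, 8.71%, 18.2% and 9.53% were called, either way, in that order of groups. Bcas1, a gene of early myelinating cells, was higher in Tail-pNSC (1.74), Lung-pNSC (1.50) and DRG pNSCs (1.41). Sox10, a glial and neural crest factor, was at 792 ± 132 cpm in DRG NCSCs and at most 14.5 cpm as a mean in the NSC and pNSC groups.

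Progenitor domain genes of the neural tube (9 genes), among which Olig2 has its place, differed between cultures. Nkx6-1, a ventral gene, measured 73.05 ± 1.84 cpm (SD, n = 2) in Tail-pNSC with 0 in Brain-NSC and Lung-pNSC, and 90.5 ± 1.40 cpm (n = 3) in Wnt1Cre-mTmG Tail pNSCs against 0.568 ± 0.127 cpm in their brain NSCs (log2 difference 7.30, edgeR adjusted p = 1.94e-16). Nkx2-2, the next ventral domain gene, was lower in Tail-pNSC (-2.33), Lung-pNSC (-4.35) and Sox2-GFP lung pNSCs (-4.91) than in brain NSCs. Pax3, a dorsal gene, was at 22.8 ± 2.05 cpm in Lung-pNSC and 0 in Brain-NSC, and at 25.4 ± 1.57 cpm in Sox2-GFP lung pNSCs beside 20.8 ± 1.03 cpm in their brain NSCs. Higher and lower genes numbered 4 and 1 of 9 in Tail-pNSC, 3 and 2 of 9 in Lung-pNSC, 4 and 1 of 8 in Wnt1Cre-mTmG Tail pNSCs, 5 and 0 of 8 in DRG pNSCs and 1 and 3 of 7 in Sox2-GFP lung pNSCs. Spinal and sensory neuron subtype genes (11 genes, 4 to 6 tested) gave 0 and 1, 2 and 0, 2 and 3, 1 and 3, and 2 and 2 in the same order. The shares of all genes called, either way, were 10.9%, 8.71%, 18.2%, 9.53% and 15.7% in that order.

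Genes whose pattern was most like that of a member were ranked by Pearson's r of log2(cpm + 1). Over the 21 brain NSC and pNSC samples and 11576 genes, Olig1 was most like Prkg2 (0.956), Arhgap44 (0.953), Shisa6 (0.940), Nsg1 (0.937) and Faim (0.932). Scarb1 (0.976), Wdr62 (0.970), Bax (0.961) and Zwilch (0.959) were among the 5 most like Olig2, and Neurod1 was most like Txndc5 (0.941), Gli3 (0.915), Myh9 (0.911), Cers2 (0.909) and Xrn2 (0.906). Over all 28 samples and 14454 genes the first was Trim37 (0.992) for Olig1, Elovl2 (0.995) for Olig2 and Heatr1 (0.919) for Neurod1. By rank (Spearman's rho) these 3 pairs stood at 0.834, 0.479 and 0.812. Olig1 and Olig2 correlated at a Pearson's r of 0.674 over the 21 samples and of 0.984 over all 28. These samples share libraries' scaling and fall into groups of 2 or 3 replicates, so the values describe the groups and carry no test.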

How the data were processed

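RNA-seq of polyA-selected RNA was single-end. The authors aligned reads to GRCm38 with HISAT2, annotated them with Cufflinks and counted them per gene with HTSeq, and deposited raw counts for 28 samples. Annotation release, counting mode and strand setting are not given in the sources used here. Groups came from the labels. Genes passing filterByExpr (minimum count 10, minimum total 15) in an experiment were scaled by TMM and fitted over all its groups with edgeR 4.0.16 (quasi-likelihood test, R 4.3.3), which tested 16948 (Nes-GFP), 14448 (Wnt1Cre-mTmG) and 16234 (Sox2-GFP) genes. The p-values are two-sided and Benjamini-Hochberg adjusted over all genes tested. Interactions came from a fit over 28 samples (17393 genes). Printed cpm levels were scaled over all 28 samples, and a floor of 3 counts per library was used. Fold ratios with exact counting intervals replace fitted values where a group held at most 3 counts per library. Alternatives were DESeq2 1.42.0, upper-quartile scaling, no filter, only the groups compared, a single fit, a replicate block, no fold limit and leaving out each library. On simulated data with 200 changed genes, the tail comparisons recovered 199 (Nes-GFP) and 200 (Wnt1Cre-mTmG), with 6 and 15 false calls. The simulation changed well-counted genes alone and gave all genes the same spread. It therefore does not speak for Neurog2, Neurod1 and Neurod4, which have few counts in most groups. The members and gene lists were chosen with earlier results of these data known. All members are named, and of each list up to 3 called genes with the largest log2 change and a group mean of at least 5 cpm, save for items that are not reported here. Tcf4, Tcf12, Id4, Hes5, Elavl3, Rbfox3, Gpr17, Bcas1 and Nkx2-2 share their span with other annotated genes.

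Same-numbered replicates did not deviate together: correlations of deviations from group means lay between -0.0475 and 0.053, so replicate numbers were not taken as pairs.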

Additional observations from a re-analysis of the deposited data

Results flagged for a closer look

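For 8 values, a pNSC difference from brain NSCs was not the same size in separate experiments, as tested by an interaction in 1 edgeR fit over 28 samples. They were picked at an adjusted p under 0.05 without the fold limit, and the share of all genes under that rule was not taken. With the limit, 2 of 6 members were called for tail and for lung, beside 16.0% and 14.1% of all genes. In tail pNSCs (Wnt1Cre-mTmG minus Nes-GFP, log2 scale) the difference was -0.45 for Olig1 (edgeR adjusted p = 3.23e-11), -0.42 for Olig2 (adjusted p = 6.64e-08), 3.92 for Neurog2 (adjusted p = 4.36e-07) and 4.07 for Neurod4 (adjusted p = 0.00965). In lung pNSCs (Sox2-GFP minus Nes-GFP, log2 scale) it was 0.36 for Olig1 (edgeR adjusted p = 6.98e-09), 0.44 for Olig2 (adjusted p = 2.26e-08), 1.17 for Neurog2 (adjusted p = 0.0341) and 4.08 for Neurod1 (adjusted p = 7.57e-10). The lung value of Neurog2 lost its call in DESeq2 (1.12, adjusted p = 0.0874), with no filter on low counts (1.13, edgeR adjusted p = 0.0586), with the replicate block (1.15, edgeR adjusted p = 0.0781) and in 7 of 10 fits that left out 1 library. Neurod4 lost its call without Brain-NSC replicate 2 (3.18, edgeR adjusted p = 0.283). The Neurod4 value rests on few counts outside the Wnt1Cre-mTmG tail pNSCs, at most 7 per group. Neurog2 counts summed to 6 in Wnt1Cre-mTmG brain NSCs, 38 in Brain-NSC, 51 in Tail-pNSC and 22 in Lung-pNSC. They summed to 81 in Sox2-GFP brain NSCs and 123 in Sox2-GFP lung pNSCs. Neurod1 counts summed to 15 in Sox2-GFP brain NSCs and 105 in Brain-NSC, and to 253 in Sox2-GFP lung pNSCs and 89 in Lung-pNSC.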

How the results depend on the processing

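Counts of members called are given with the main count in parentheses. With the adjusted p alone they were 3 (1) for tail pNSCs against brain NSCs in the Nes-GFP experiment, 2 (0) for lung pNSCs there, 5 (3) for Wnt1Cre-mTmG tail pNSCs, 1 (0) for DRG pNSCs, 5 (2) for tail against DRG pNSCs, 3 (1) for Sox2-GFP lung pNSCs, 4 (2) for the tail interaction and 4 (2) for the lung interaction. The share of all genes passing the adjusted p alone was not taken. These counts therefore show how the rule acts and are no result about the members. With only the groups compared in the fit, fewer members passed the filter, and 2 (5) were called for DRG NCSCs against brain NSCs and 3 (5) for DRG pNSCs against DRG NCSCs. DESeq2 called 1 (2) for tail against lung pNSCs and 1 (2) for the lung interaction, and no filter on low counts called 1 (2) for the latter. Leaving out 1 library gave 1 to 2 for tail against lung pNSCs (Neurog2, 1.16 to 1.44), for the lung interaction (Neurog2, 0.65 to 1.51) and for the tail interaction (Neurod4, 3.18 to 5.65). The causes were not tested. The sign of Neurod1 in Lung-pNSC against Brain-NSC, -0.21 and not called, turned to 0.012 without Brain-NSC replicate 1 and 0.088 without Lung-pNSC replicate 2, and the range over libraries left out was -0.65 to 0.088. Neurod1 in tail against DRG pNSCs passed the fold limit without Wnt1Cre-mTmG tail replicate 3 (1.09) or DRG pNSC replicate 2 (1.13). Without the fold limit, 45 of 120 counts of called genes in the lists moved by over 1.5 times. Of the other neural bHLH genes, 2 instead of 4 were called in Tail-pNSC against brain NSCs with only the groups compared, and 5 instead of 2 in Wnt1Cre-mTmG tail pNSCs with no filter.

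With the replicate number as a block, the lung interaction called 1 (2) members, as Neurog2 stood at 1.15 (edgeR adjusted p = 0.0781), and no other count of members moved. The numbers do not pair the samples.

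Depth limits Olig3, Neurog1, Neurod4 and Atoh1 most, since in most groups they lie at or under 3 counts per library.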
